A study of Mus musculus with 6 samples.

Results

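The 37 genes described here encode enzymes and carriers of fatty acid oxidation, together with further targets of the fatty acid receptor PPARA, in mouse liver. They were chosen by name, from a fixed list, as genes of mitochondrial, peroxisomal and microsomal fatty acid oxidation, of ketone formation and of PPARA control. No measured value enters the rule, though the list was drawn up with earlier results of these data known. All 37 were found among the 54446 genes of the deposited table, and all 37 were among the 15368 genes abundant enough to be tested. Eci3 entered the tested set through its week 2 counts, since it had no count in the libraries of the other weeks.

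Liver burns fatty acids in mitochondria after their transfer across the inner membrane as carnitine esters, and sends the acetyl groups it does not burn to ketone bodies. Peroxisomes shorten very long chains, and cytochromes of the Cyp4a family in the endoplasmic reticulum hydroxylate the far end of the chain, the start of omega-oxidation. PPARA is a nuclear receptor that binds fatty acids and, paired with RXR, activates genes of these 3 compartments, most of all in fasting.

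The series compared liver cells of mice taken at week 0, week 2 and week 7 of a treatment named in its title as MET/CAT and SB transposase, where a transposase is an enzyme that moves DNA into chromosomes. What CAT stands for is not spelled out, and no route, dose, age or sex is given. Each week has 2 libraries, 6 in all, and the labels give all of them a mixed FVB/N and C57BL background with a number after C57BL/ that differs from sample to sample, so that the background is unsure. No untreated mice of week 2 or week 7 are among the samples, so age and treatment cannot be told apart. The labels do not say whether replicate libraries came from separate mice, and p-values then measure only the spread between these libraries.

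Libraries held 49353453 to 58434358 deposited counts, of which these 37 genes took 0.665% to 0.917%. Levels below are counts per 1000000 after TMM scaling of the libraries (CPM), and a call is an edgeR quasi-likelihood adjusted p under 0.05 over all tested genes. Of the genes that the title may refer to, Met had 47.4 and 78.5 CPM at week 7 against 35.2 and 34.3 CPM at week 0 and was not called (adjusted p = 0.103). Ctnnb1 had 201 and 163 CPM at week 7 against 116 and 104 CPM at week 0 and was called higher (log2 fold change 0.72, adjusted p = 0.00682). The 8 hepatocyte markers summed to 79765 to 117040 CPM, most of it Alb. Against week 0, 2 were higher and 5 lower at week 2, and 1 was higher and 4 lower at week 7. Of all tested genes, 18.6% and 13.8% were called in these comparisons. Alb and Apoa1 went opposite ways at week 2 (log2 fold change 0.54 and -0.58). All 7 adipocyte markers had 0 counts in all 6 libraries, and of 6 muscle markers 5 were at 0 throughout. Counts of Xist, the RNA that silences 1 X chromosome in females, were 13236 and 12804 in the week 2 libraries and at most 15 in each of the other 4. Ddx3y, a Y-linked gene, had 0 counts in both week 2 libraries and 1897 to 2303 in the others. The libraries labelled week 2 thus carry female transcripts and the others male ones. Week 7 against week 0 is the comparison without a difference in sex. In week 2 against week 0 and week 7 against week 2, time and sex cannot be told apart.

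At week 7 against week 0 the genes split evenly. Of the 37, 7 rose and 7 fell, where 7.58% of all tested genes rose and 6.23% fell (13.8% in either direction), and their median log2 fold change was 0.02 against 0.00 over all genes. With libraries scaled by total counts alone, 7 rose and 4 fell. Cpt1a, Cyp4a10, Vnn1 and Bdh1 rose, and Acadm, Acaa1b and Pex11a fell, in the main analysis and in each of 15 alternatives. The other 7 calls, in Crat, Acadvl, Cyp4a31, Acsl1, Eci1, Decr1 and Decr2, were lost in at least 1 alternative.

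At week 2 against week 0 most of the genes moved one way. Of the 37, 22 were higher and 2 were lower, where 9.81% of all tested genes were higher and 8.81% lower (18.6% in either direction), and their median log2 fold change was 0.26 against 0.01 over all genes. Eci3, tested only because of its week 2 counts, is among the 22. The 37 genes summed to 6977 ± 48.3 CPM at week 0, 8824 ± 38.2 CPM at week 2 and 6837 ± 166 CPM at week 7 (SD, n = 2 libraries each). Much of the difference lay in the 4 Cyp4a genes. Without them the sums were 6941 ± 47.2, 7839 ± 44.7 and 6782 ± 164 CPM. Values of week 2 and week 7 libraries that do not overlap those of week 0 are common in this table, at 60.2% and 56.0% of all tested genes, so a lack of overlap carries little weight alone.

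**Figure D1:**
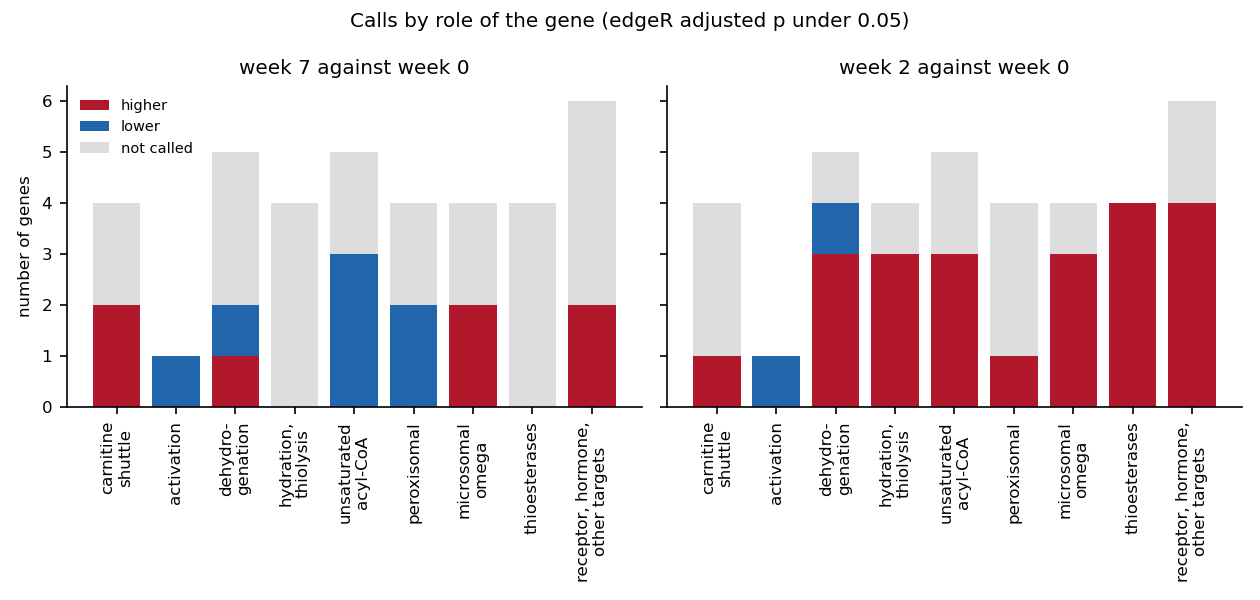
Number of genes called higher (red), lower (blue) or not called (grey) among the 37 genes, by role, at week 7 against week 0 (left) and week 2 against week 0 (right). At week 2 all 4 thioesterase genes and 3 of 4 microsomal genes were higher, while at week 7 no thioesterase gene was called.

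**Figure D2:**
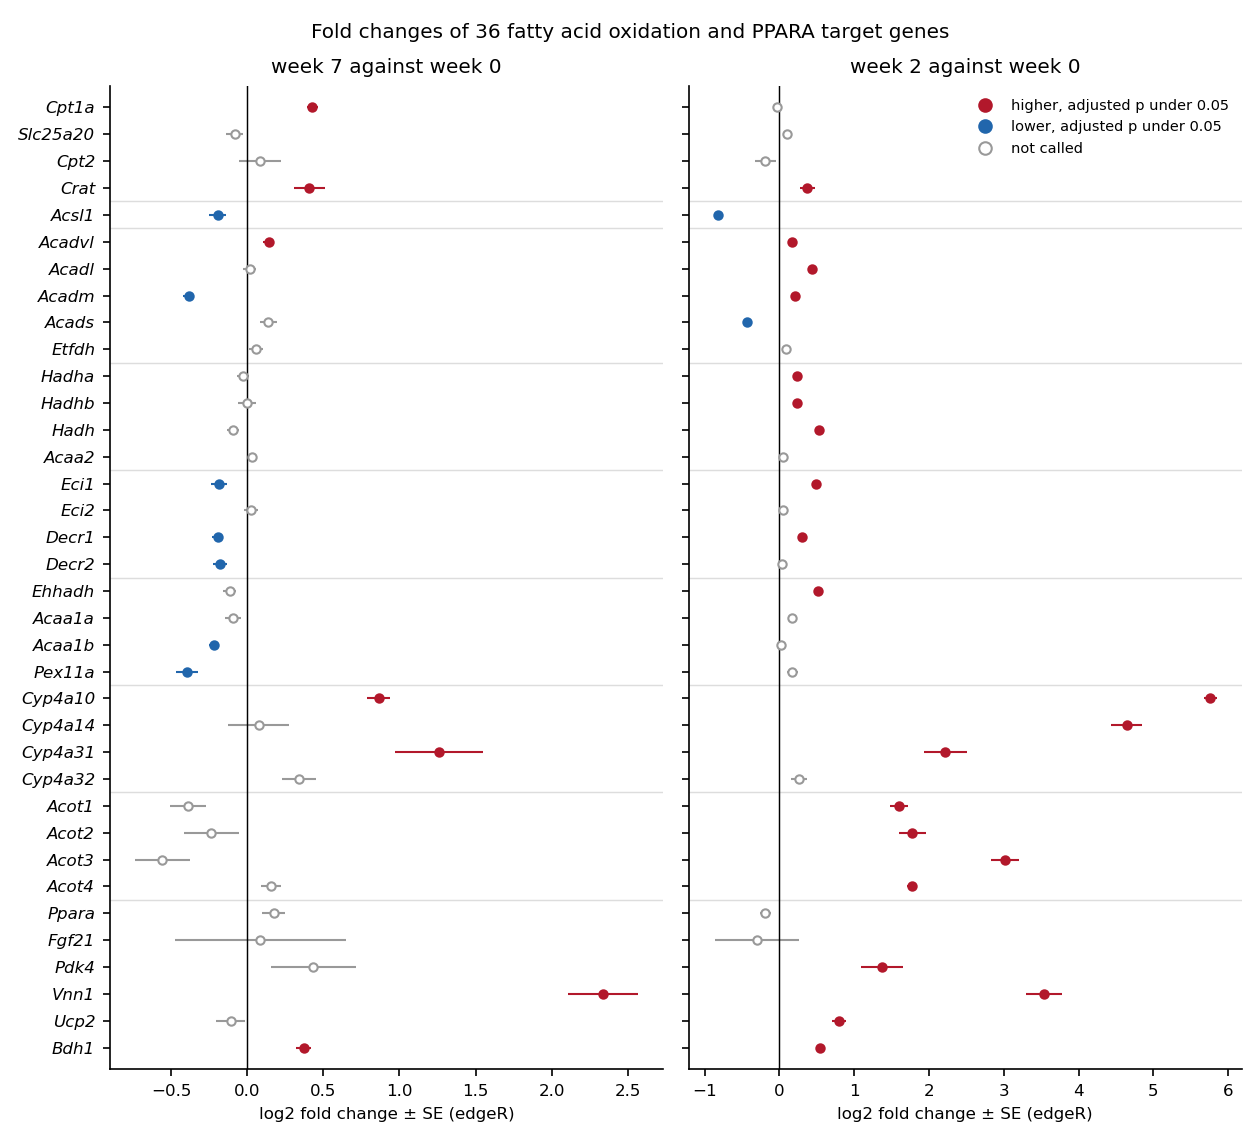
Fitted log2 fold change with its standard error for 36 of the genes, ordered by role, at week 7 against week 0 (left) and week 2 against week 0 (right, wider axis), from 2 libraries a week. Eci3 is left out because it had 0 counts at weeks 0 and 7. Vnn1 and Cyp4a31 lie farthest to the right at week 7, Cyp4a10 and Cyp4a14 at week 2.

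Among the genes of the carnitine shuttle, Cpt1a and Crat rose at week 7, and Slc25a20 and Cpt2 were not called. Cpt1a (ENSMUSG00000024900) encodes carnitine palmitoyltransferase 1A of the outer mitochondrial membrane, the controlled entry step of mitochondrial oxidation. It had 265 and 268 CPM at week 0, 258 and 261 CPM at week 2, and 363 and 354 CPM at week 7. Both week 7 libraries lay above all 4 others, by 1.35-fold over week 0 (log2 fold change 0.43 ± 0.038 SE, edgeR adjusted p = 0.000155), whereas week 2 was not called against week 0 (log2 fold change -0.04, adjusted p = 0.555). Crat, which encodes carnitine acetyltransferase, averaged 24.3 ± 1.67 CPM at week 0, 31.5 ± 1.73 CPM at week 2 and 32.3 ± 2.79 CPM at week 7 and was called at both later weeks (edgeR adjusted p = 0.0385 and 0.0326). Slc25a20, the carrier that exchanges acylcarnitine for carnitine across the inner membrane, stayed between 98.6 and 117 CPM in all 6 libraries. Cpt2, which reforms acyl-CoA on the matrix side, ranged from 88.6 to 119.6 CPM, with replicates of 90.5 and 112 CPM at week 0 and of 119.6 and 94.9 CPM at week 7, and no difference beyond that spread.

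The 250 bases before the start of Cpt1a are shown because this gene rose at week 7 without a call at week 2. The stretch holds a half-site of the kind that PPARA and RXR bind in pairs, found in 14.0% of the stretches of all genes. Acadm, which fell at week 7, has this half-site too, and binding was not tested. The sequence is from RefSeq, build GRCm38.p6, chr19:3323051-3323300, plus strand, with the half-site AGGTCA, here on the other strand as TGACCT, in capitals.
Cpt1a: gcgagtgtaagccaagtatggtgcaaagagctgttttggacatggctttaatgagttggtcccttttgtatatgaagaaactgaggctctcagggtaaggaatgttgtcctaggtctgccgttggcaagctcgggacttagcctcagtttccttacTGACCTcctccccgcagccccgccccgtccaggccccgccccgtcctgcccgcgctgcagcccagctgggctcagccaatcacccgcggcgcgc

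Acsl1, which activates long-chain fatty acids to their CoA esters, was lower at both later weeks. It had 574 and 547 CPM at week 0, 323 and 311 CPM at week 2 and 517 and 462 CPM at week 7. Both week 2 libraries lay below the rest, 1.77-fold lower than week 0 (log2 fold change -0.82 ± 0.055 SE, adjusted p = 1.48e-05). At week 7 it was 1.14-fold lower than at week 0, with an adjusted p of 0.0499 that 7 of 15 alternatives moved above the threshold.

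The acyl-CoA dehydrogenases, which take the opening step of each round of oxidation and differ in the chain length they accept, did not move as a block. Acadm, the medium-chain enzyme, had 315 and 316 CPM at week 0, 369 and 360.3 CPM at week 2, and 240.4 and 244 CPM at week 7. The 3 weeks did not overlap: week 7 was 1.3-fold lower than week 0 (log2 fold change -0.38 ± 0.037 SE, adjusted p = 0.000238) and week 2 was 1.15-fold higher (adjusted p = 0.00454). Acadl, the long-chain enzyme, averaged 265 ± 4.58 CPM at week 2, 1.35-fold above the 196 ± 1.6 CPM of week 0 (adjusted p = 0.000111), and 198 ± 4.07 CPM at week 7. Acads, the short-chain enzyme, went the other way at week 2, with 138 and 142 CPM against 181 and 198 CPM at week 0 (log2 fold change -0.43 ± 0.058 SE, adjusted p = 0.000904). Its week 7 libraries, at 215 and 202 CPM, were not called against week 0 (adjusted p = 0.157). Acadvl, the very-long-chain enzyme, was 1.12-fold higher at week 2 and 1.1-fold higher at week 7 (adjusted p = 0.0156 and 0.0367). Etfdh, which passes electrons from these enzymes to the respiratory chain, ranged from 203 to 226 CPM and was not called in any comparison.

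Hadha and Hadhb encode the alpha and beta subunits of the mitochondrial trifunctional protein, which hydrates, oxidises and cleaves long-chain intermediates. Hadha had 329 and 336 CPM at week 0, 399.7 and 380.3 CPM at week 2 and 325 and 327 CPM at week 7. Hadhb had 152 and 140.3, 175 and 169, and 150.2 and 142 CPM in the same weeks. The subunit genes moved alike, each with a log2 fold change of 0.23 at week 2 against week 0 (standard errors 0.039 and 0.057, adjusted p = 0.00371 and 0.0216) and no call at week 7 (-0.03 and -0.00). Hadh, the dehydrogenase for shorter chains, moved more, with 443 and 448 CPM at week 2 against 306 and 311 CPM at week 0 (1.44-fold, adjusted p = 2.67e-05), and 298 and 281 CPM at week 7. Acaa2, the mitochondrial thiolase, averaged 1128 ± 15.6, 1161 ± 30.9 and 1154 ± 11.7 CPM over the 3 weeks and was not called in any comparison. Counts of Hadhb may include reads of Gm13910, since 11.8% of the 150-base windows of its transcripts are also found exactly in that gene, and Hadha shares none.

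Hadha and Hadhb start head to head in the RefSeq annotation, 272 bases apart and on opposite strands, so that the stretch before one start is largely the stretch before the other. The 250 bases before Hadhb (RefSeq, GRCm38.p6, chr5:30155003-30155252, plus strand) share 228 bases with those before Hadha. They are shown because the subunit genes moved by the same log2 fold change at week 2. The stretch holds 1 match, in capitals, to TTCNNNGAA, a core letter pattern of sites for the growth hormone-activated factor STAT5. This pattern is in 7.02% of the stretches of all genes. Cpt2, which has a match too, was not called at week 2, and binding was not tested.
Hadhb: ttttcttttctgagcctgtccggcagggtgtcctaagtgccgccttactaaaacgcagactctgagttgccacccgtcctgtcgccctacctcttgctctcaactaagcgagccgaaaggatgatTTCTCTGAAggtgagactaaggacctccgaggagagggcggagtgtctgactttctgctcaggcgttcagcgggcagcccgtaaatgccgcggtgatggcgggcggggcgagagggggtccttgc

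Of the genes that handle unsaturated chains, Eci1, Decr1 and Decr2 fell at week 7 and Eci1, Decr1 and Eci3 were higher at week 2. Eci1, a mitochondrial isomerase that shifts double bonds, averaged 115 ± 4.13 CPM at week 7, 1.14-fold below the 131 ± 1.85 CPM of week 0 (adjusted p = 0.0406), and 184 ± 3.24 CPM at week 2 (1.4-fold, adjusted p = 0.000182). Decr1, the mitochondrial dienoyl-CoA reductase, had 215 and 215 CPM at week 0, 268 and 265 CPM at week 2, and 189.7 and 187 CPM at week 7, with adjusted p = 0.000696 at week 2 and 0.012 at week 7. Decr2, its peroxisomal counterpart, was called at week 7 alone, at 229 ± 4.06 CPM against 259 ± 0.633 CPM at week 0 (adjusted p = 0.0361).

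Eci2 and Eci3 encode related isomerases and lie near each other on chromosome 13. Eci3 had 0 counts in both week 0 libraries, 864 and 925 counts in the week 2 libraries, or 14.4 and 15.6 CPM, and 0 counts in both week 7 libraries. Against a floor of 12 deposited counts in each library, taken as 3 read pairs and averaged over a week as 0.245 CPM at week 0 and 0.228 CPM at week 7, week 2 was at least 61.4-fold higher than week 0 and at least 65.7-fold higher than week 7. Eci2 ranged from 168 to 177 CPM in all 6 libraries and was not called in any comparison. None of the 150-base windows of their transcripts is shared between them. The 250 bases before each start are shown since neighbouring genes of 1 family gave such different counts. They come from RefSeq, GRCm38.p6, at chr13:34963810-34964059 for Eci3 and chr13:34994145-34994394 for Eci2, both on the minus strand, and neither holds any of the motifs searched, so no letter is in capitals.
Eci3: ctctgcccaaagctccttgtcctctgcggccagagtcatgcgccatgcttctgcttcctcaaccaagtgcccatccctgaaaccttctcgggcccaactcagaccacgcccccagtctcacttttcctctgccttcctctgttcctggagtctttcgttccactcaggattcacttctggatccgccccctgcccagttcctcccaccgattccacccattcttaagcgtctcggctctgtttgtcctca
Eci2: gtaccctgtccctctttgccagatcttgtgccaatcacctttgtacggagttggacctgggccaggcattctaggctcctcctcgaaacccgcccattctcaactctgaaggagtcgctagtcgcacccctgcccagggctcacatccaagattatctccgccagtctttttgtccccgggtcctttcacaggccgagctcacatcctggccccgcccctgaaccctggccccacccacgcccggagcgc

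**Figure D3:**
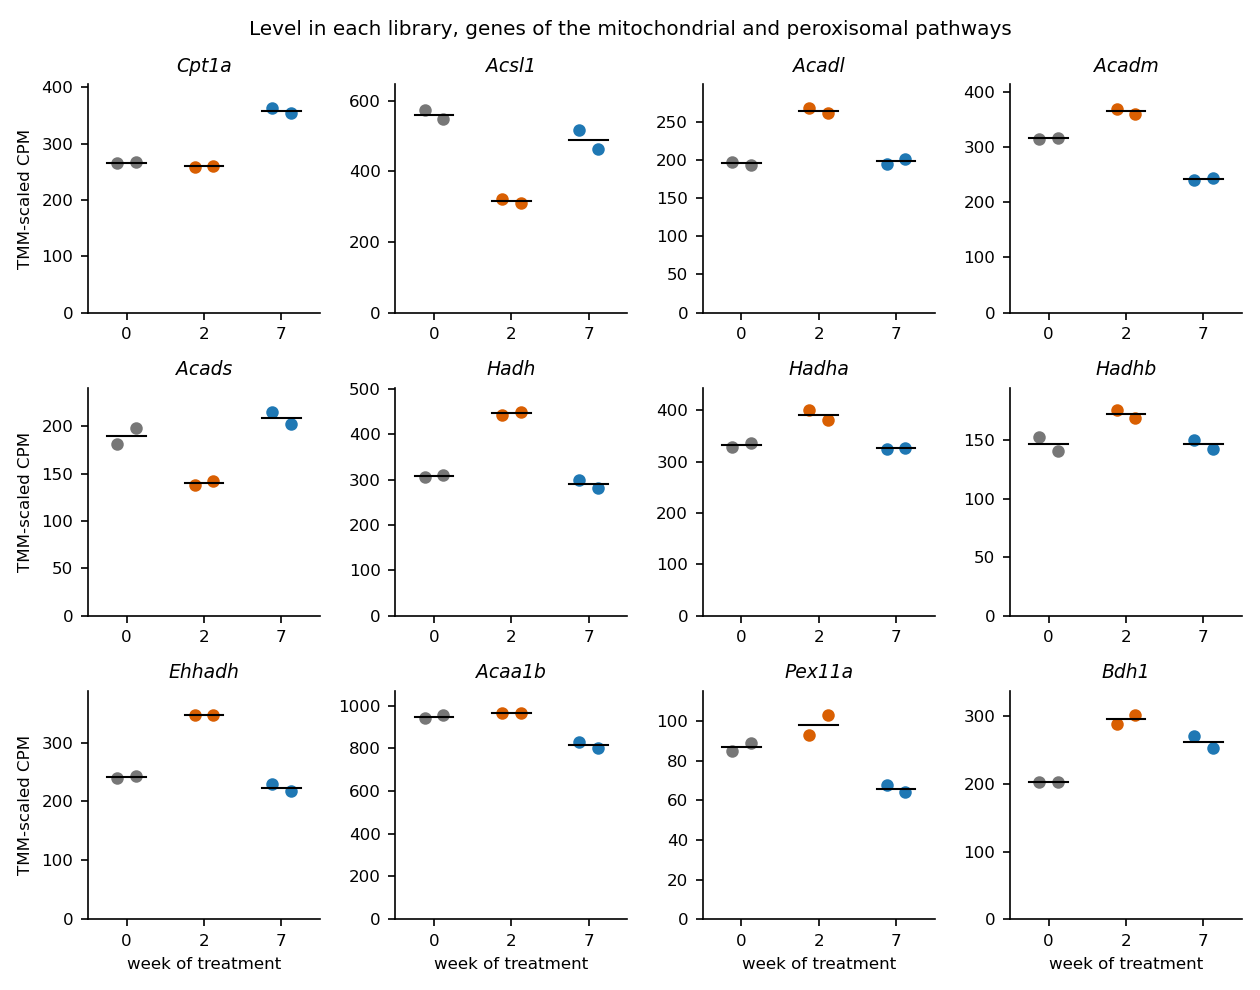
TMM-scaled CPM in each library (points) with the mean of each week (bar) for 12 genes of the mitochondrial and peroxisomal pathways and ketone formation. Cpt1a is high at week 7, Acsl1 and Acads are low at week 2, and Acadm, Acaa1b and Pex11a are lowest at week 7.

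In the peroxisomal group, Acaa1b and Pex11a fell at week 7 and Ehhadh alone was called higher at week 2. Ehhadh, the bifunctional enzyme of the classical peroxisomal pathway and a target of PPARA, had 240.1 and 243 CPM at week 0, 346 and 346 CPM at week 2 and 229.7 and 217 CPM at week 7. The week 2 libraries stood 1.43-fold above week 0 (log2 fold change 0.52 ± 0.042 SE, adjusted p = 4.11e-05), and week 7 was not called (adjusted p = 0.114). Acaa1b, a peroxisomal thiolase, had 831 and 801 CPM at week 7 against 943 and 955 CPM at week 0, 1.16-fold lower (adjusted p = 0.00228), and 964 CPM in both week 2 libraries. Its near copy Acaa1a was not called at week 7 (adjusted p = 0.325) or at week 2 (0.0557), although 6 of 15 alternatives called it higher at week 2 (adjusted p from 0.0148 to 0.049). Of the 150-base windows of Acaa1b transcripts 11.3% occur in Acaa1a too, so the division of reads between them is uncertain. Pex11a, which promotes the division of peroxisomes, had 85.0 and 89.0 CPM at week 0, 93.0 and 103 CPM at week 2 and 67.7 and 64.4 CPM at week 7. It was 1.32-fold lower at week 7 than at week 0 (log2 fold change -0.40 ± 0.071 SE, adjusted p = 0.00719).

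Of the microsomal omega-hydroxylation genes, 3 of 4 were higher at week 2 and 2 of 4 at week 7. Cyp4a10 (ENSMUSG00000066072) had 14.7 and 17.2 CPM at week 0, 856 and 869.7 CPM at week 2, and 30.0 and 27.9 CPM at week 7. Week 2 was 54.2-fold above week 0 (log2 fold change 5.76 ± 0.089 SE, adjusted p = 1.11e-08), and week 7 was 1.82-fold above it (0.86 ± 0.075 SE, adjusted p = 0.000376). Per kilobase of exon length in GENCODE M21, its level was 7.56 CPM at week 0 and 409 CPM at week 2, when Acaa1b had 491 CPM and Acadvl 143 CPM per kilobase. Cyp4a14 had 4.85 and 3.09 CPM at week 0, 102 and 97.0 CPM at week 2 and 4.02 and 4.36 CPM at week 7. Week 2 was far above week 0 (log2 fold change 4.64 ± 0.21 SE, adjusted p = 1.52e-05), while week 7 and week 0 overlapped.

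Cyp4a31 and Cyp4a32, the remaining Cyp4a genes of the list, differed far less at week 2. Cyp4a31 had 1.24 and 1.06 CPM at week 0, 5.39 and 5.32 CPM at week 2 and 3.33 and 2.17 CPM at week 7 (adjusted p = 0.000839 at week 2 and 0.0222 at week 7). Cyp4a32 had 14.6 and 15.5 CPM at week 0, 17.8 and 18.3 CPM at week 2 and 19.0 and 19.1 CPM at week 7 and was not called in any comparison. Cyp4a10, Cyp4a31 and Cyp4a32 share 4.0%, 3.5% and 7.0% of their 150-base windows with another of the family, so some reads of the abundant week 2 Cyp4a10 transcripts may be counted elsewhere, and small values of the others are uncertain. Cyp4a14 shares none. In the same family, the genes Cyp4a12a and Cyp4a12b, which male mouse liver makes, showed the opposite order, Cyp4a12a with 370.4 ± 3.81 CPM at week 0, 1.42 ± 0.024 CPM at week 2 and 284 ± 12.6 CPM at week 7.

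All 4 genes of the Acot cluster on chromosome 12, thioesterases that release free fatty acids from acyl-CoA in cytosol, mitochondria or peroxisomes, were higher at week 2. Acot3, a peroxisomal member, had 18.8 and 19.1 CPM at week 0, 153 and 153 CPM at week 2 and 15.4 and 10.3 CPM at week 7. Week 2 was 8.1-fold above week 0 (log2 fold change 3.02 ± 0.19 SE, adjusted p = 0.000232). Acot4, also peroxisomal, had 71.9 and 74.4, 249 and 251, and 76.7 and 86.4 CPM, a 3.42-fold difference at week 2 (adjusted p = 2.04e-07). Acot1, the cytosolic enzyme, averaged 56.7 ± 4.38 CPM at week 2 against 18.7 ± 1.12 CPM at week 0 (3.04-fold, adjusted p = 2.12e-05). Acot2, its mitochondrial neighbour, averaged 16.2 ± 1.87 CPM against 4.75 ± 0.764 CPM (3.42-fold, adjusted p = 0.000194). None of the 4 was called at week 7 against week 0, although Acot1 lay near the threshold at 14.3 ± 1.87 CPM (log2 fold change -0.39, edgeR adjusted p = 0.062). Acot1 was called lower with DESeq2 (adjusted p = 0.0399). In edgeR it was called lower with upper-quartile scaling, no filter or counts divided by 4 (adjusted p = 0.0463, 0.0349 and 0.0482). Acot3 was called lower with DESeq2 on all libraries (log2 fold change -0.559, adjusted p = 0.00877). It was also called without week 7 replicate 1 (log2 fold change -0.872, adjusted p = 0.000855), as were Acot1 (-0.528, adjusted p = 0.0456) and Acot4 (0.241, adjusted p = 0.043). Between 6.9% and 10.7% of the windows of Acot1, Acot2 and Acot3 are shared with relatives, and none of Acot4.

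Acot4 had the smallest adjusted p of the cluster at week 2, and a half-site ends 8 bases before its annotated start. Acot1, Acot2 and Acot3, whose stretches hold no half-site, were higher at week 2 too. The half-site is in 14.0% of the stretches of all genes, and binding was not tested. The 250 upstream bases of Acot4 are from RefSeq, GRCm38.p6, chr12:84038129-84038378, plus strand, with the half-site in capitals, again as TGACCT.
Acot4: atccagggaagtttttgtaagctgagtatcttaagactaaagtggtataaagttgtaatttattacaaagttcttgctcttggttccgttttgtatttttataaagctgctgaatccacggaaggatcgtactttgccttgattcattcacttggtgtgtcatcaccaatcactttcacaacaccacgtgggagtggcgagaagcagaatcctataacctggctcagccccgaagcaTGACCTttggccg

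These stretches were searched, after the values were known, for 3 letter patterns on both strands. The patterns were the full pair of half-sites, AGGTCA, 1 base of any kind and AGGTCA again (called DR1, bound by PPARA with RXR), the half-site AGGTCA alone, which also forms part of a DR1, and TTCNNNGAA. The RefSeq table held 33 upstream stretches for 30 of the 37 genes, and no DR1 was in any of them, against 11 of 32851 stretches of all genes (0.033%). The genes without a stretch were Cyp4a10, Cyp4a14, Cyp4a31, Vnn1, Crat, Decr1 and Acaa2. The half-site was in 4 of the 33, those of Acadm, Acadvl, Acot4 and Cpt1a, against 14.0% of all stretches. TTCNNNGAA was in 3, those of Cpt2, Hadha and Hadhb, of which the last 2 are 1 site, against 7.02% of all. Sites farther away or with other letters were not searched.

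**Figure D4:**
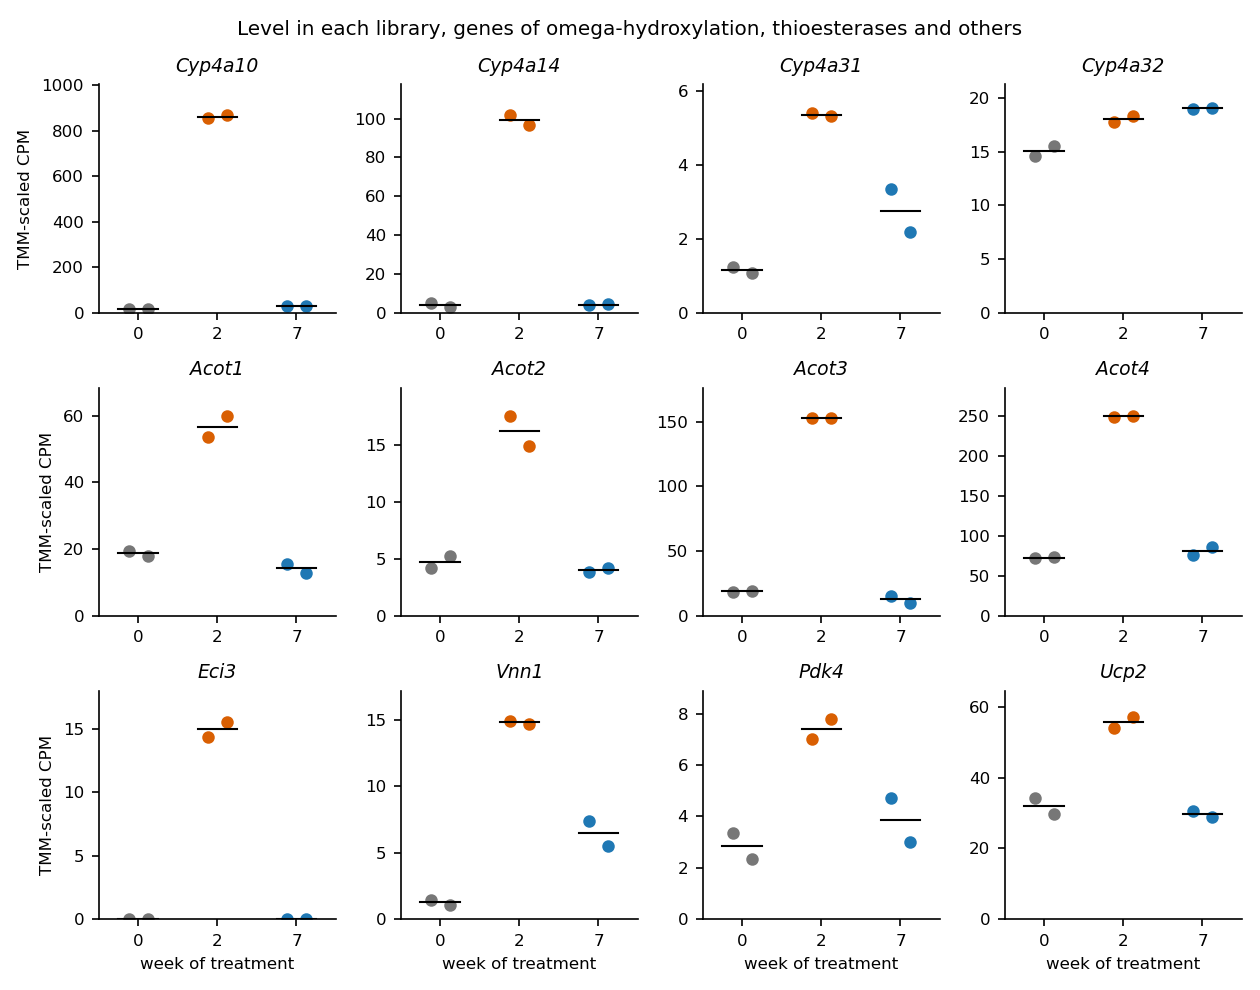
TMM-scaled CPM in each library (points) with the mean of each week (bar) for the Cyp4a and Acot genes, Eci3, Vnn1, Pdk4 and Ucp2. The week 2 libraries stand above the other weeks in every panel except that of Cyp4a32, where the week 7 libraries are highest, at 19.0 and 19.1 CPM.

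The receptor gene itself was not called at either later week. Ppara had 111 and 108 CPM at week 0, 91.1 and 101 CPM at week 2 and 131 and 116 CPM at week 7. Neither later week was called against week 0 (log2 fold changes -0.19 and 0.18, adjusted p = 0.134 and 0.18), while week 7 was 1.29-fold above week 2 (adjusted p = 0.0108). Fgf21, which encodes a fasting hormone of liver, had 32 to 52 deposited counts in every library, or 0.54 to 1.02 CPM, and no difference was detectable at this depth.

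Vnn1, which encodes pantetheinase, an enzyme that recycles the vitamin part of coenzyme A, was higher at both later weeks than at week 0. It had 1.46 and 1.08 CPM at week 0, 14.9 and 14.7 CPM at week 2 and 7.41 and 5.46 CPM at week 7. The 3 weeks did not overlap, with week 7 5.06-fold above week 0 (log2 fold change 2.34 ± 0.23 SE, adjusted p = 0.000286) and week 2 11.7-fold above it (adjusted p = 1.16e-05). Bdh1, the mitochondrial enzyme that makes the ketone body beta-hydroxybutyrate, had 203 and 203 CPM at week 0, 289 and 302 CPM at week 2, and 271 and 253 CPM at week 7. It was 1.29-fold higher at week 7 (log2 fold change 0.37 ± 0.047 SE, adjusted p = 0.00111) and 1.46-fold higher at week 2 (adjusted p = 6.08e-05). Pdk4, a kinase that shuts off glucose oxidation in favour of fat, had 3.37 and 2.34 CPM at week 0, 7.02 and 7.80 CPM at week 2 and 4.72 and 2.99 CPM at week 7. It was called at week 2 (adjusted p = 0.00946) but not at week 7 (0.376), where its libraries overlapped those of week 0.

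Ucp2, an inner-membrane carrier that macrophages of liver also express, averaged 55.7 ± 2.16 CPM at week 2 against 32.0 ± 3.23 CPM at week 0 (1.74-fold, adjusted p = 0.000451) and 29.7 ± 1.29 CPM at week 7. Week 7 was not called against week 0 (edgeR adjusted p = 0.531). The 11 markers of Kupffer cells and macrophages summed to 486 to 495 CPM at week 0, 701 to 707 CPM at week 2 and 368 to 373 CPM at week 7. Of these markers, 7 were higher and 0 lower at week 2, 0 were higher and 8 lower at week 7, and none was at 0 in all libraries. Their part in the Ucp2 values was not tested, and in these bulk libraries fewer cells of a type and less RNA per cell cannot be told apart. Of 10 markers of stellate cells and fibroblasts, 7 were higher and 1 lower at week 2 (441 to 443 CPM in sum, against 288 to 291 CPM at week 0), and 1 was higher and 6 lower at week 7 (189.6 to 206 CPM). Of all tested genes, 9.81% were higher and 8.81% lower at week 2, and 7.58% were higher and 6.23% lower at week 7.

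The rest of the pathway was taken as 118 further genes in 6 lists, of which 114 were tested. Of these, 32 were higher and 19 lower at week 2 against week 0 (28.1% and 16.7%, all genes 9.81% and 8.81%). At week 7 against week 0, 20 rose and 20 fell (17.5% each, all genes 7.58% and 6.23%). The 22 other oxidation enzymes had 4 higher and 4 lower at week 2 (18.2% each). Hacl1, a peroxisomal lyase of alpha-oxidation, had 473 CPM in both week 2 libraries against 203 and 195 CPM at week 0. Nudt7, which cleaves peroxisomal CoA, had 214 and 209 CPM at week 2 against 835 and 838 CPM at week 0, and Scp2, which holds a peroxisomal thiolase, had 1213 and 1239 CPM against 3072 and 3145 CPM (adjusted p = 1.31e-09 and 3.15e-09). At week 7, 2 of the 22 enzymes rose and 6 fell (9.09% and 27.3%). Amacr, a racemase for branched chains, rose to 236 and 234 CPM at week 7, against 154 and 159 CPM at week 0 (adjusted p = 6.03e-05).

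Fatty acid uptake and activation had 6 higher and 3 lower of 19 at week 2 (31.6% and 15.8%, all genes 9.81% and 8.81%). At week 7, 3 were higher and 3 lower (15.8% each, all genes 7.58% and 6.23%). Abcd2, a peroxisomal importer of very long acyl-CoA, averaged 12.4 ± 0.185 CPM at week 0, 75.0 ± 1.69 CPM at week 2 and 26.8 ± 2.59 CPM at week 7 (adjusted p = 2.1e-07 and 0.000107). Cd36, the membrane fatty acid translocase, followed the same order, at 10.5 ± 2.01, 37.1 ± 0.402 and 17.8 ± 1.42 CPM. Fabp1, the abundant fatty acid carrier of hepatocyte cytosol, fell to 4993 and 4911 CPM at week 7, against 7540.1 and 7670.4 CPM at week 0 (log2 fold change -0.62, adjusted p = 1.03e-05). Fabp2, its intestinal relative, fell to 54.7 ± 2.81 CPM against 95.1 ± 0.374 CPM (adjusted p = 8.17e-05).

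Of the 8 other genes of ketone body synthesis and use, 2 were higher and 2 lower at week 2, and 1 rose and 2 fell at week 7. Slc16a7, a monocarboxylate transporter, averaged 92.5 ± 0.414 CPM at week 2 and 50.3 ± 5.71 CPM at week 7, against 34.5 ± 1.41 CPM at week 0. Acat1, the mitochondrial acetoacetyl-CoA thiolase, fell to 301 ± 4.55 CPM at week 7, against 379 ± 3.48 CPM at week 0 (adjusted p = 0.000838).

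Among the 22 tested other PPARA targets, 10 were higher and 5 lower at week 2 (45.5% and 22.7%, all genes 9.81% and 8.81%). At week 7, 4 rose and 5 fell (18.2% and 22.7%, all genes 7.58% and 6.23%). Plin2, a coat protein of lipid droplets, rose to 288 and 291 CPM at week 7, against 184 and 186 CPM at week 0 (adjusted p = 1.58e-05). Pnpla2, the droplet triglyceride lipase ATGL, rose to 79.6 ± 0.575 CPM against 46.6 ± 3.1 CPM (adjusted p = 0.000671), and its inhibitor G0s2 fell to 23.7 ± 0.234 CPM against 59.4 ± 0.117 CPM (log2 fold change -1.33, adjusted p = 1.18e-05). Lpl, lipoprotein lipase, rose to 23.4 ± 2.25 CPM against 8.64 ± 0.483 CPM. At week 2, Aldh3a2, which oxidises fatty aldehydes, averaged 461 ± 4.39 CPM against 245 ± 7.95 CPM at week 0, and Plin5, which ties droplets to mitochondria, 58.9 ± 1.63 CPM against 30.5 ± 0.697 CPM.

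The 21 regulators had 6 risen and 1 fallen at week 7 (28.6% and 4.76%, all genes 7.58% and 6.23%). At week 2, 4 were higher and 2 lower (19.0% and 9.52%, all genes 9.81% and 8.81%). The shares that fell or were lower were thus near those of all genes. Ppargc1a, a coactivator of oxidation genes, averaged 3.27 ± 0.223 CPM at week 0, 11.0 ± 2.61 CPM at week 2 and 8.18 ± 0.399 CPM at week 7 (adjusted p = 0.000447 and 0.00355). Rxra, the partner of PPARA, rose to 469 ± 12.3 CPM at week 7, against 376 ± 5.11 CPM at week 0 (adjusted p = 0.00191). Klb, the co-receptor for FGF21, was called higher at both weeks. Acacb, whose product malonyl-CoA inhibits CPT1, had 140.3 and 143 CPM at week 2 against 74.1 and 71.2 CPM at week 0 (edgeR adjusted p = 5.82e-06). Acaca, whose enzyme makes malonyl-CoA too, went the other way. It had 70.0 and 72.4 CPM at week 2 against 99.6 and 96.7 CPM at week 0 (edgeR adjusted p = 0.000692). Peroxisome biogenesis and other peroxisomal enzymes had 6 higher and 3 lower of 22 at week 2 (27.3% and 13.6%). At week 7, 4 were higher and 3 lower (18.2% and 13.6%). Hao2, a peroxisomal hydroxy acid oxidase, had 0.16 and 0 CPM at week 0, 196 and 193 CPM at week 2 and 4.22 and 4.67 CPM at week 7. Acnat2, an acyl-CoA N-acyltransferase, had 111 and 116 CPM at week 2 against 8.92 and 11.5 CPM at week 0, and Cat, catalase, averaged 2334 ± 28.4 CPM at week 2 and 2579 ± 57.9 CPM at week 7, against 3071 ± 13 CPM at week 0, both called.

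Feeding and time of day move many of these genes in liver, and the labels give neither. Of 9 genes that respond to fasting and feeding, 4 rose and 4 fell at week 7 (44.4% each). At week 2, 2 were higher and 5 lower (22.2% and 55.6%). Of 11 tested clock genes, 2 rose and 2 fell at week 7 (18.2% each), and 0 were higher and 4 lower (36.4%) at week 2. Over all tested genes, 7.58% rose and 6.23% fell at week 7, and 9.81% were higher and 8.81% lower at week 2. The 12 clock genes summed to 663 to 671 CPM at week 0, 532 to 541 CPM at week 2 and 691 to 753 CPM at week 7, and the feeding genes to 4878 to 4914, 4169 to 4189 and 4656 to 4758 CPM. Their part in the results was not tested.

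Week 7 against week 2, where sex differs too, had 4 of the 37 genes higher and 24 lower, where 10.1% of all tested genes were higher and 9.73% lower (19.8% in either direction). The genes higher at week 7 were Cpt1a, Acsl1, Acads and Ppara. Eci3, tested only because of its week 2 counts, is among the 24 lower. This comparison shares its week 7 and week 2 libraries with the other comparisons and is not independent of them. In the main analysis, 7 of the 37 genes were called in none of the 3 comparisons, namely Slc25a20, Cpt2, Etfdh, Acaa2, Eci2, Cyp4a32 and Fgf21. Of these, Slc25a20 was called lower at week 7 against week 2 in 5 alternatives (adjusted p from 0.0189 to 0.049). Slc25a20, Etfdh and Acaa2 were called higher at week 2 against week 0 with total counts only (adjusted p = 0.0465, 0.0255 and 0.0239), and Cyp4a32 higher at week 7 against week 0 with DESeq2 (adjusted p = 0.0414).

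Several calls were lost when 1 library was left out. Such a fit has fewer residual degrees of freedom, so a lost call need not rest on the values of that library. For Acadvl at week 7 against week 0, leaving out week 2 replicate 1 or 2 gave log2 fold changes of 0.142 and 0.143. The main analysis gave 0.142. At week 7 against week 0, no call of Crat was made without week 0 replicate 1 or 2 or week 7 replicate 1 (log2 fold change 0.481, 0.342 and 0.32), nor of Cyp4a31 without the same libraries (1.379, 1.148 and 0.917). Decr1 lost its call without week 0 replicate 1 or 2 or week 7 replicate 2 (-0.195, -0.193 and -0.181). Decr2 lost it without any of the 4 libraries compared (-0.196 to -0.159), Acadvl and Eci1 without any of the 6 libraries (0.12 to 0.164 and -0.221 to -0.148), and Acsl1 without any except week 7 replicate 1 (-0.228 to -0.115). At week 2 against week 0, Crat lost its call without any of the 4 libraries compared (0.303 to 0.442). Acadvl lost it without week 0 replicate 1 or week 2 replicate 1 or 2 (0.141, 0.179 and 0.148), and Hadhb without week 0 replicate 2 or week 2 replicate 1 or 2 (0.178, 0.204 and 0.264). Pdk4 lost it without week 0 replicate 2 or week 2 replicate 2 (1.138 and 1.299), and Acadm without week 2 replicate 1 (0.189, adjusted p = 0.052). At week 7 against week 2, the calls of Hadhb, Decr2, Acaa1a, Cyp4a31, Ppara, Pdk4 and Bdh1 were lost without single libraries. The log2 fold changes that were not called ran from -1.012 to -0.127, and were 0.269 and 0.291 for Ppara without week 7 replicate 1 or week 2 replicate 1. Those libraries were week 2 replicate 1 for all except Acaa1a, week 2 replicate 2 for Hadhb, Acaa1a, Cyp4a31, Pdk4 and Bdh1, week 7 replicate 2 for the same 5 genes, and week 7 replicate 1 for Decr2 and Ppara.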

How the data were processed

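Mouse liver RNA was enriched for poly-A, prepared by the TruSeq V2 method and read from both ends, per the labels' protocols. Bowtie 0.12.2 and mm8 are named in the submitters' processing notes without a role. What counted the reads is not given in the sources used here. Values in the authors' table are estimated counts of each Ensembl gene, without correction for library depth, and rounding to whole numbers altered 0 values. Of 54446 identifiers, 54409 were matched to GENCODE M21 symbols, and between 68.25% and 69.58% of values from 4 to 43 were a multiple of 4 or 1 above it (50% if all were equally frequent). A read pair was therefore taken as 4 counts. Floors cover counting error only. The kit does not mark strand.

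Genes passing filterByExpr (15368) were scaled by TMM and fitted in edgeR 4.0.16 (R 4.3.3, limma 3.58.1) with a robust quasi-likelihood model, 1 coefficient per week over all 6 libraries, 3 residual degrees of freedom and common biological coefficient of variation 0.209. Tests were 2-sided with Benjamini-Hochberg adjustment over all tested genes. Standard errors are the log2 fold change over the root of its F. Alternatives were other scalings and filters, DESeq2 1.42.0, only the 4 libraries compared, a replicate block, counts divided by 4 and each library left out, where a lone library is assumed to vary like the others. The method was tested on simulated counts. The genes and lists were chosen with earlier results of these data known. All 37 genes are named; of each other pathway list, genes were named from up to 3 called in each direction per comparison by adjusted p. Tables and figures used Python 3.11.15, pandas 2.3.3 and matplotlib 3.10.9. Some genes of the pathway lists are not reported here.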

Additional observations from a re-analysis of the deposited data

How the results depend on the processing

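Of the genes called, 4 higher and 3 lower at week 7 against week 0, 17 and 2 at week 2 against week 0, and 3 and 18 at week 7 against week 2 were called in the same direction in all 15 alternatives. Eci3, tested only because of its week 2 counts, is among the 17 and the 18. At week 7 against week 0, 4 of the 37 genes rose with only the 4 libraries compared and 4 fell with total counts only, against 7 and 7, while DESeq2 gave 8 risen and 9 fallen. Leaving out 1 library gave 4 to 6 risen and 3 to 7 fallen there. Over all genes, calls then ran from 1298 to 1856 against 2123 at week 7 against week 0, from 1801 to 2752 against 2862 at week 2 against week 0, and from 1842 to 2961 against 3040 at week 7 against week 2. For the 37 genes they ran from 18 to 23 higher at week 2 against week 0, and from 3 to 4 higher and 19 to 24 lower at week 7 against week 2. Total counts alone shifted the median gene by 0.0911 on the log2 scale at week 2 against week 0, and 27 of the 37 genes were higher there against 22.

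No positive correlation went with the replicate numbers: the differences between replicates correlated across genes at -0.072, -0.037 and -0.133 between weeks. Such correlations cannot show whether libraries were handled in pairs. With the replicate block, 6 genes rose and 5 fell at week 7 against week 0, 22 and 2 were higher and lower at week 2 against week 0, and 4 and 23 at week 7 against week 2. It lost the calls of Acadvl, Eci1 and Decr2 at week 7 against week 0 and of Bdh1 at week 7 against week 2.

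No called value changed sign in any alternative. Among values not called, the sign turned as follows. At week 7 against week 0, with total counts only, Hadha gave 0.0071 and Hadhb 0.036. With upper-quartile scaling Acadl gave -0.0087 and Eci2 -0.00057, and with only the 4 libraries compared Hadhb gave 0.0054. Without single libraries Cpt2 ran from -0.092 to 0.245, Acadl from -0.0038 to 0.039, Hadhb from -0.057 to 0.057, Cyp4a14 from -0.209 to 0.439 and Fgf21 from -0.099 to 0.279, and Eci2 gave -0.0021 at its lowest. At week 2 against week 0, Cpt1a gave 0.053 with total counts only and Decr2 -0.018 to 0.097 without single libraries. At week 7 against week 2, Crat gave -0.017 with upper-quartile scaling, -0.015 with total counts only and -0.053 to 0.124 without single libraries, where Etfdh ran from -0.081 to 0.012, Acaa2 from -0.036 to 0.021 and Eci2 from -0.051 to 0.0049. The cause was not tested. Depth limits Fgf21, Cyp4a31, Vnn1 at week 0 and Pdk4, which rest on few read pairs.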
